A study of Homo sapiens with 6 samples.

Results

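Expression of 39 Wnt pathway genes was followed in HFL-1 human fetal lung fibroblasts after knockdown of the transcriptional co-activator TAZ. The genes comprised 12 Wnt ligands, 10 Frizzled receptors, 2 LRP co-receptors, 2 ROR co-receptors, the R-spondin RSPO3, 6 secreted inhibitors and 6 genes of the beta-catenin arm. They were picked by gene symbol from the 23355 entries of the count table, and all 39 were found there. A total of 28 had enough counts to be tested, among 14053 genes tested overall. WNT7B was not on the list, as it lies in a region where 1 library had nearly no counts (described below).

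Wnt proteins are secreted lipid-modified ligands that bind Frizzled receptors on the cell surface. With the co-receptors LRP5 or LRP6, they stop the destruction of beta-catenin, which then enters the nucleus and acts on DNA-bound TCF and LEF factors. Other ligands, WNT5A among them, act largely without beta-catenin through ROR receptors and the planar polarity proteins. In the lung, mesenchymal cells are a source of Wnt ligands and of their inhibitors during development, and Wnt signals are studied in lung fibrosis.

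HFL-1 is an established fibroblast line, so all cultures stemmed from a single line. A control siRNA without a target (siNTC), siTAZ #1 or siTAZ #2 was introduced by transient transfection. RNA was extracted 48 h afterwards. Each of the 3 groups had 2 libraries, called biological replicates in the series description. With 2 libraries per group no permutation of single values could reach p = 0.05, so calls rest on a spread shared across genes and groups. A p-value weighs the difference between groups against that spread, which comes from these libraries only. The targeted gene, WWTR1, which encodes TAZ, had 132 and 131 counts per 1000000 counts of the library (CPM) in the siNTC libraries, 26.4 and 28.4 with siTAZ #1, and 46.1 and 43.1 with siTAZ #2. It fell 4.80-fold with siTAZ #1 (FDR 0.00062) and 2.95-fold with siTAZ #2 (FDR 0.00068). FDR stands for the Benjamini-Hochberg adjusted p of edgeR's quasi-likelihood test over all genes tested, and a gene was called at an FDR under 0.05. WWTR1 was also lower with siTAZ #1 than with siTAZ #2, at a log2 fold change of -0.70 ± 0.10 (SE, FDR 0.005, and 0.27 by edgeR's exact test on these 4 libraries).

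The libraries held 15648055 to 32078188 counts. In siTAZ #1 replicate 2, the deepest library, genes from RANGAP1 on chromosome 22 through chromosomes X and Y took 0.248% of counts, against 3.58% to 3.75% in the other 5 libraries. None of the 39 genes lies there, but 579 of the genes tested do, and they raised the common dispersion shared by all genes from 0.0163 to 0.0807. Counts of calls are therefore also given without these genes. All 12 fibroblast markers, such as COL1A1 and PDGFRA, were at 30.5 CPM or more in each group, and the summed level of 7 epithelial markers was 0.903 to 3.18 CPM and that of 4 endothelial markers 0.888 to 3.5 CPM. Among 5 immune markers, 4 were under 1 CPM in each group, and CD68, which fibroblasts can also express, accounted for nearly all of the summed 38 to 75.7 CPM. In such bulk cultures, fewer cells of a kind and less RNA per cell cannot be told apart.

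TAZ has no DNA-binding domain and acts mainly through TEAD factors, so the promoters were read on both strands for GGAATG, the core letters of TEAD sites. They were also read for CTTTGAT, a single form of the TCF/LEF site. Other forms of that site were not searched for, so a window without CTTTGAT may hold another form. RefSeq windows on GRCh38.p14, from 250 bases before to 50 bases after a start site, were given for 27 of the 39 genes, in 33 windows. The TEAD letters were found in 2 of the 33 windows (6.06%), those of DKK1 and WNT16. They were in 14.0% of 35116 windows of all genes and in 11.8% of 14319 windows of tested genes. The letters CTTTGAT were found in 0 of 33, against 2.62% and 1.56%. The windows of DKK1 and WNT16 are shown with the TEAD letters in capitals, and those of WNT2 and WNT5A, which hold no match, because WNT2 fell the most among the ligands called and WNT5A was the most abundant ligand. Each runs 5′ to 3′ on the gene's strand from 250 bases before to 30 bases after the start.
DKK1 promoter, chr10:52314031-52314310, plus strand: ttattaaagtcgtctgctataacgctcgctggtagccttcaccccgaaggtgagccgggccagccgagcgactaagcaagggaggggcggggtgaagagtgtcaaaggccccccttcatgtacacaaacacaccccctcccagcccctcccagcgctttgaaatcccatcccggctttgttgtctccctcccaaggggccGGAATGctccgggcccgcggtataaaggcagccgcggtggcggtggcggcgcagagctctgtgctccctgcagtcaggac
WNT16 promoter, chr7:121328750-121329029, plus strand: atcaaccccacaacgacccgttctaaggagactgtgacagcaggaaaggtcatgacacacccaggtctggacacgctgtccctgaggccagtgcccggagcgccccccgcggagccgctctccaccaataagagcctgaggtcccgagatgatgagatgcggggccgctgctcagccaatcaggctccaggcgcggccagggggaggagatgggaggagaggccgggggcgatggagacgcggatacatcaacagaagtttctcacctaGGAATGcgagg
WNT2 promoter, chr7:117323029-117323308, minus strand: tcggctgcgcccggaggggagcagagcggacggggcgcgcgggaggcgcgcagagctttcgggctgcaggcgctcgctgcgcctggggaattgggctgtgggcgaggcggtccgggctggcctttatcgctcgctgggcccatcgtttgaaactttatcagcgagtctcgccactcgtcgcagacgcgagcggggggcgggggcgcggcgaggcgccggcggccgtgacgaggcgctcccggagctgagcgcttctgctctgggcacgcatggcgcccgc
WNT5A promoter, chr3:55487277-55487556, minus strand: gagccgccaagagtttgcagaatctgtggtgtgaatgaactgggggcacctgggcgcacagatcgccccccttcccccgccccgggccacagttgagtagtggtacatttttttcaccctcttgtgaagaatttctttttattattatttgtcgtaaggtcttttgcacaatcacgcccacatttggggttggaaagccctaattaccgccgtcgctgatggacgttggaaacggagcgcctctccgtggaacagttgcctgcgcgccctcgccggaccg
WNT5A second promoter, chr3:55481369-55481648, minus strand: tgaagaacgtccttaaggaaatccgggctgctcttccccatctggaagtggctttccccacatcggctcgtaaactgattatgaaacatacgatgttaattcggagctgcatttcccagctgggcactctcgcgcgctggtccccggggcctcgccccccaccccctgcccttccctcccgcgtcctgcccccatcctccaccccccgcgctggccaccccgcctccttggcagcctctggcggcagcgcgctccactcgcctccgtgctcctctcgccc
In DKK1 the match began 50 bases before the start, and in WNT16 it began 19 bases after it. DKK1 fell and WNT16 rose with both siRNAs (values below), so the genes of the 2 windows with a match moved in opposite directions. A match is a run of letters and not a measured binding site.

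Levels of the tested genes in siNTC cells spanned more than 3 orders of magnitude. Levels were compared between genes only as mean CPM per kilobase of exon. The secreted inhibitors DKK3 and SFRP1 led, at 442 and 428 CPM per kb, followed by CTNNB1, which encodes beta-catenin, at 174. The main ligands were WNT5A at 46.7 and WNT5B at 36.0 CPM per kb, and WNT2 followed at 4.12. The main Frizzled receptors were FZD7 at 29.9, FZD2 at 27.9 and FZD6 at 18.8 CPM per kb, whereas FZD1 stood at 3.41. LRP5 (11.2 CPM per kb) was above LRP6 (4.32), and among the DNA-binding partners of beta-catenin TCF7L1 (11.5) and TCF7L2 (8.05) were above TCF7 (3.89) and LEF1 (3.42). Under siTAZ #2 WNT5A reached 132 CPM per kb, above the Frizzled receptors measured.

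**Figure D1:**
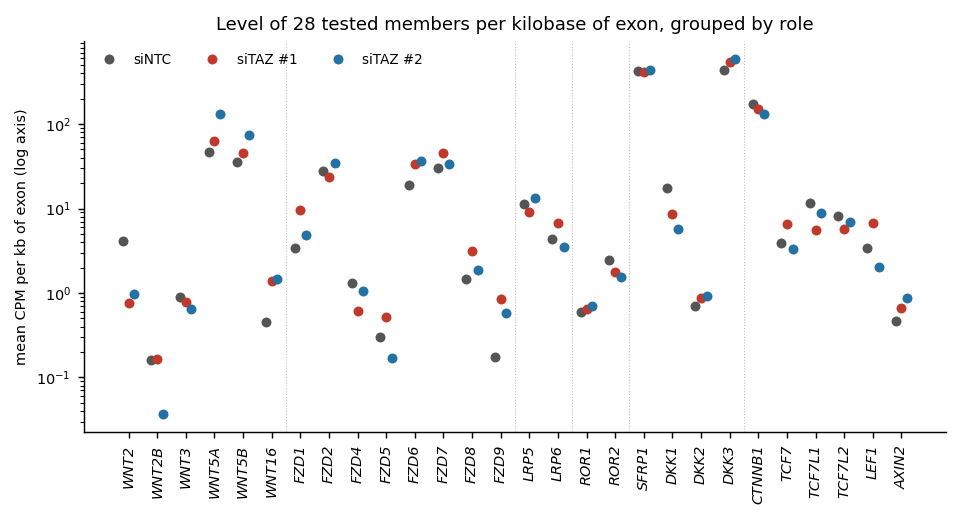
Mean level of the 28 tested genes in CPM per kilobase of exon, on a log axis, in the siNTC (grey), siTAZ #1 (red) and siTAZ #2 (blue) groups, each point the mean of 2 libraries; dotted lines separate the roles. DKK3, SFRP1 and CTNNB1 stand above 100 CPM per kb in each group, and WNT5A does so with siTAZ #2 only.

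The other 11 genes did not pass the filter on low counts and were not tested. They were the ligands WNT4, WNT6, WNT7A, WNT9A, WNT10B and WNT11, the receptors FZD3 and FZD10, RSPO3, and the inhibitors SFRP2 and SFRP4. No library had more than 18 counts of any of them. RSPO3, an R-spondin that strengthens Wnt signals at the receptor, had 5 counts over the siNTC libraries, 24 over the siTAZ #1 libraries and 7 over the siTAZ #2 libraries. FZD3 had 16, 20 and 17 counts, and WNT9A 15, 12 and 14. WNT6, WNT7A, FZD10 and SFRP2 had 0 counts in siNTC, which allows up to 3 counts over the group, or 0.0932 CPM.

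For each siRNA the study looked at genes that fell, and it kept those shared by both siRNAs. Here each siRNA was compared with siNTC in both directions. With siTAZ #1, 16 of the 28 tested genes were called (57.1%), 11 higher and 5 lower, while 20.6% of all genes tested were called, 10.8% higher and 9.78% lower. Their median log2 fold change was 0.31, against 0.02 over all genes tested. With siTAZ #2, 9 of 28 were called (32.1%), 6 higher and 3 lower, while 28.5% of all genes were called, 14.1% higher and 14.4% lower. The share with siTAZ #2 was thus near that of all genes, and the median was 0.10, against 0.01. Among the 28, WNT2B and FZD9 passed the filter on low counts only through the group where they were higher in a comparison, and FZD9 was called with siTAZ #1. Of the 26 genes that also reached its minimum in both libraries of the lower group, 15 were called with siTAZ #1 (57.7%) and 9 with siTAZ #2 (34.6%), against 22.5% and 30.1% of all genes treated alike. Called higher with siTAZ #1 were WNT5A, WNT5B, WNT16, FZD1, FZD6, FZD7, FZD8, FZD9, LRP6, DKK3 and LEF1, and called lower were WNT2, FZD4, DKK1, TCF7L1 and TCF7L2. Called higher with siTAZ #2 were WNT5A, WNT5B, WNT16, FZD1, FZD6 and DKK3, and called lower were WNT2, DKK1 and CTNNB1. The 2 libraries lay wholly above or below both siNTC libraries for 23 of the 28 genes with siTAZ #1 (64.3% of all genes) and for 23 with siTAZ #2 (71.4%). Both comparisons used the same siNTC libraries, so their lists are not independent.

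These counts depended on the test and on the libraries used, those of siNTC among them. The fit shares a spread over groups, but the 2 libraries differed by unequal amounts. Outside the genes from RANGAP1 to Y, the mean chi-square per gene between them was 5.38 for siNTC, 23.46 for siTAZ #1 and 11.71 for siTAZ #2. This value also grows with depth, and its part in the counts of calls was not tested. With the exact test of edgeR, run on 4 libraries per comparison, 4 genes were called with siTAZ #1 (6.64% of all genes) and 15 with siTAZ #2 (46.7%). Without siNTC replicate 1 or without siNTC replicate 2, 2 of the 28 genes were called with siTAZ #1 (4.0% and 3.8% of all genes), and FZD1 and TCF7L1 were the genes called in every fit that left out 1 library. The count was 9 when siTAZ #2 replicate 1 was dropped (13.6% of all genes) and 8 when replicate 2 was (13.5%). With siTAZ #2, leaving out siNTC replicate 1 left 4 calls (9.59% of all genes) and leaving out siNTC replicate 2 left 3 (9.08%), whereas 4 and 5 calls were left when siTAZ #2 replicate 1 or 2 was dropped (13.3% and 12.5%). WNT5A, WNT5B and DKK1 were called in every such fit. The calls over all genes thus fell and rose together with those of the 28. Without the genes from RANGAP1 to Y, 17 genes were called with siTAZ #1 (30.6% of all genes) and 11 with siTAZ #2 (38.8%), all earlier calls included. The added genes were TCF7 with siTAZ #1, and FZD2 and LEF1 with siTAZ #2. The fits above with 1 library left out kept the genes from RANGAP1 to Y. With those genes also left out, more of the main calls with each siRNA were made in every such fit.

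**Figure D2:**
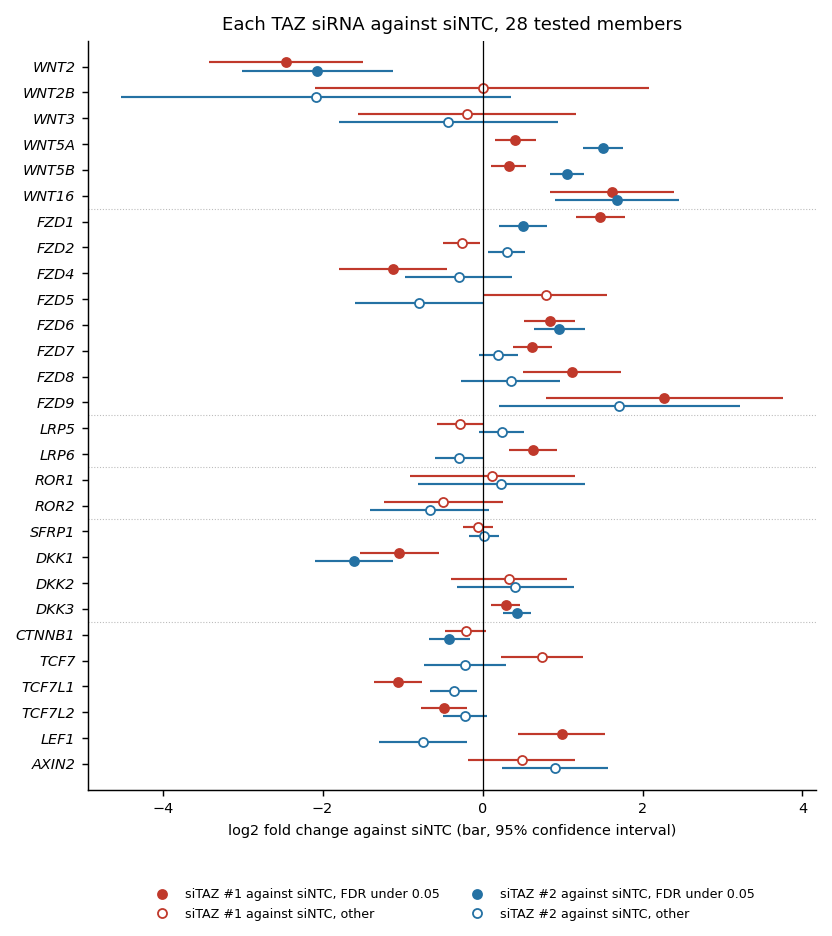
Log2 fold change of the 28 tested genes against siNTC with siTAZ #1 (red) and siTAZ #2 (blue), with 95% confidence intervals from the edgeR fit; filled points have an FDR under 0.05. WNT2 and DKK1 lie left of 0 and WNT16, FZD1 and FZD6 right of 0 with both siRNAs, while for LEF1 the points lie on opposite sides (0.99 and -0.74).

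Among the ligands, the abundant WNT5A and WNT5B rose and WNT2 fell. WNT5A (chr3:55499743-55524567, minus strand, GRCh37), the best known ligand of the branch without beta-catenin, had 266 and 280 CPM in siNTC, 339 and 388 with siTAZ #1, and 816 and 730 with siTAZ #2. Its groups did not overlap. It rose 1.33-fold with siTAZ #1 (log2 0.41 ± 0.10, FDR 0.039) and 2.83-fold with siTAZ #2 (1.50 ± 0.10, FDR 0.00076). WNT5B (chr12:1639057-1756378, plus strand), its close relative, had 78.5 and 82.7 CPM in siNTC, 96.7 and 106 with siTAZ #1, and 162 and 172 with siTAZ #2. The order of the groups was that of WNT5A, and the rises were 1.25-fold (log2 0.33 ± 0.09, FDR 0.048) and 2.07-fold (1.05 ± 0.09, FDR 0.0011).

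WNT2 (chr7:116915505-116963206, minus strand), a ligand of the beta-catenin branch made by lung mesenchyme, had 14.3 and 17.5 CPM in siNTC, 4.0 and 1.90 with siTAZ #1, and 4.25 and 3.32 with siTAZ #2. All siTAZ libraries lay below both siNTC libraries. It fell 5.48-fold with siTAZ #1 (log2 -2.46 ± 0.39, FDR 0.011) and 4.18-fold with siTAZ #2 (-2.07 ± 0.39, FDR 0.013). The value with siTAZ #1 was -1.99 without siTAZ #1 replicate 2 and -3.06 without replicate 1. Both WNT2 calls were lost without either siNTC library, and the siTAZ #2 call also without either siTAZ #2 library. Leaving out the genes from RANGAP1 to Y brought the WNT2 FDR down to 5e-05 (siTAZ #1) and 0.00017 (siTAZ #2). Neither call was then lost when 1 library was dropped as well. WNT16 (chr7:120965421-120981158, plus strand), a ligand best known from bone, was scarce, at 1.39 and 1.45 CPM in siNTC, 3.55 and 5.15 with siTAZ #1, and 5.0 and 4.11 with siTAZ #2. It rose 3.07-fold (log2 1.62 ± 0.31, FDR 0.019) and 3.19-fold (1.68 ± 0.32, FDR 0.013). The siTAZ libraries had 55 to 168 counts of it, and the siNTC libraries 22 and 23.

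The other tested ligands, WNT2B and WNT3, were not called. WNT2B had 22 and 34 counts in siNTC, 50 and 15 with siTAZ #1, and 11 and 5 with siTAZ #2, so the siTAZ #1 libraries lay on either side of the control (log2 -2.08 ± 0.99 with siTAZ #2, FDR 0.17). WNT3 stood at 1.39 to 3.68 CPM, with overlapping groups. Of the ligand calls, those of WNT5A and WNT5B with siTAZ #2 were made in every fit with 1 library left out. The others were each lost in at least 1 such fit, without either siNTC library in each case. With the genes from RANGAP1 to Y also left out, WNT2 with both siRNAs and WNT16 with siTAZ #2 were called in every such fit. The rest were not. Exons of the canonical WNT2B and ST7L transcripts share 2598 bases on opposite strands, and those of WNT2 share 169 bases with CFTR only when all annotated transcripts are taken. The strand setting of the counting is not given in the sources used here.

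**Figure D3:**
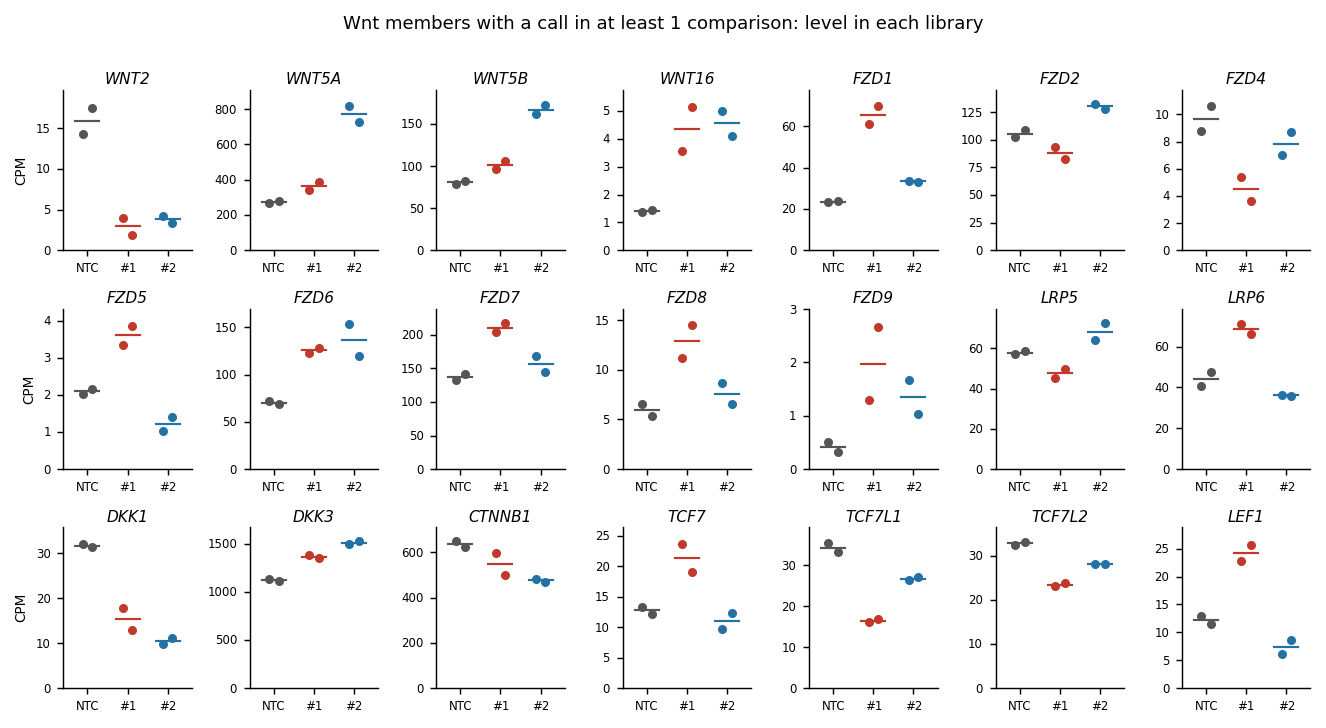
CPM in each library for the 21 genes called in at least 1 of the 3 comparisons, on linear axes from 0; points are libraries, lines are group means, NTC is siNTC, and #1 and #2 are the TAZ siRNAs. WNT2 and DKK1 are high in siNTC, WNT5A and WNT5B are highest with siTAZ #2, and FZD1, LRP6 and LEF1 are highest with siTAZ #1.

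Of the 8 tested Frizzled receptors, 5 rose and 1 fell with siTAZ #1 (75.0% called, against 20.6% of all genes), and 2 rose with siTAZ #2 (25.0%, near the 28.5% of all genes). Among the 7 without FZD9, 4 rose and 1 fell with siTAZ #1 (71.4% called, against 22.5% of all genes that reached the filter's minimum in the lower group). FZD1 (chr7:90893748-90900641, plus strand) had 23.2 and 23.9 CPM in siNTC, 61.1 and 69.6 with siTAZ #1, and 33.4 and 33.2 with siTAZ #2. The groups were well apart, with siTAZ #1 the highest. FZD1 rose 2.78-fold with siTAZ #1 (log2 1.47 ± 0.12, FDR 0.0017) and 1.41-fold with siTAZ #2 (0.50 ± 0.12, FDR 0.030). FZD6 (chr8:104310661-104345094, plus strand), a receptor tied to planar polarity, had 71.6 and 68.4 CPM in siNTC, 123 and 128 with siTAZ #1, and 153 and 120 with siTAZ #2. Its rises were 1.79-fold (log2 0.84 ± 0.13, FDR 0.0095) and 1.95-fold (0.96 ± 0.13, FDR 0.0045), with all siTAZ libraries above the controls.

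FZD7 (chr2:202898578-202903164, plus strand), the Frizzled with the highest level per kb in siNTC, had 133 and 142 CPM in siNTC, 204 and 217 with siTAZ #1, and 168 and 145 with siTAZ #2. It rose 1.54-fold with siTAZ #1 (log2 0.62 ± 0.10, FDR 0.011) and was not called with siTAZ #2 (0.19 ± 0.10, FDR 0.20). FZD8 (chr10:35927175-35931224, minus strand) had 6.53 and 5.36 CPM in siNTC, 11.2 and 14.5 with siTAZ #1, and 8.65 and 6.52 with siTAZ #2. Its rise with siTAZ #1 was 2.17-fold (log2 1.12 ± 0.25, FDR 0.031), and with siTAZ #2, where 1 library lay within the control range, the value was 0.35 ± 0.25 (FDR 0.34) and turned to -0.06 once GC content was modelled. FZD4 (chr11:86656721-86666437, minus strand), the receptor of norrin as well as of Wnts, had 8.75 and 10.6 CPM in siNTC, 5.36 and 3.62 with siTAZ #1, and 7.01 and 8.70 with siTAZ #2. It fell 2.17-fold with siTAZ #1 (log2 -1.12 ± 0.28, FDR 0.039) and stood at -0.30 ± 0.27 with siTAZ #2 (FDR 0.45). Over all annotated transcripts its exons share 1399 bases with PRSS23 on the opposite strand, but 0 over the canonical ones.

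FZD9 and FZD5 were scarce. FZD9 (chr7:72848108-72850450, plus strand) had 8 and 5 counts in siNTC, 20 and 87 with siTAZ #1, and 36 and 17 with siTAZ #2, and it passed the low-count filter only through the siTAZ libraries, so it could be tested only because it was higher there. Its log2 fold change was 2.27 ± 0.60 with siTAZ #1 (FDR 0.048, and 0.057 with GC content modelled) and 1.71 ± 0.61 with siTAZ #2 (FDR 0.088). Without siTAZ #1 replicate 2 the former was 1.63, and without replicate 1 it was 2.68. FZD5 (chr2:208627322-208634630, minus strand) had 2.03 and 2.15 CPM in siNTC, 3.35 and 3.86 with siTAZ #1, and 1.03 and 1.39 with siTAZ #2, so that siTAZ #1 lay above and siTAZ #2 below the control. Neither difference from siNTC was called (log2 0.79 and -0.79, FDR 0.13 each). FZD2 (chr17:42634852-42638630, plus strand) showed the reverse order, with 102 and 109 CPM in siNTC, 93.2 and 82.7 with siTAZ #1, and 132 and 128 with siTAZ #2, and was not called either (log2 -0.26, FDR 0.10, and 0.30, FDR 0.058). Of the Frizzled calls, FZD1 with siTAZ #1 was made in every fit with 1 library left out. The others were each lost without siNTC replicate 2 and, apart from FZD6 with siTAZ #2, without siNTC replicate 1. With the genes from RANGAP1 to Y also left out, FZD6 with both siRNAs and FZD7 with siTAZ #1 were called in every such fit. The rest were still lost in at least 1.

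Of the LRP co-receptors, which pass the Wnt signal on to beta-catenin, LRP6 rose with siTAZ #1, and LRP5 was not called against siNTC with either siRNA. LRP6 (chr12:12268959-12419978, minus strand) had 40.9 and 47.7 CPM in siNTC, 71.0 and 66.2 with siTAZ #1, and 36.2 and 35.9 with siTAZ #2. It rose 1.55-fold with siTAZ #1 (log2 0.63 ± 0.12, FDR 0.020, and at most 0.14 without 1 siNTC library or siTAZ #2 replicate 2), while with siTAZ #2 both libraries lay below the control without a call (-0.30 ± 0.12, FDR 0.13). LRP5 (chr11:68080059-68216743, plus strand) had 56.9 and 58.6 CPM in siNTC, 45.4 and 49.5 with siTAZ #1, and 64.0 and 72.4 with siTAZ #2. Its values against siNTC were not called (log2 -0.28, FDR 0.14, and 0.24, FDR 0.17), and the value with siTAZ #2 turned to -0.09 once GC content was modelled. ROR1 and ROR2, receptors of WNT5A, were not called. ROR1 stood at 2.27 to 4.86 CPM over the 6 libraries, and ROR2 at 8.65 and 11.9 CPM in siNTC and 5.70 to 8.97 CPM with the siTAZ siRNAs.

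Among the secreted inhibitors DKK1 fell and DKK3 rose with both siRNAs, and the abundant SFRP1 was not called. DKK1 (chr10:54074041-54077802, plus strand), which blocks LRP5 and LRP6, had 32.0 and 31.4 CPM in siNTC, 17.9 and 13.0 with siTAZ #1, and 9.72 and 11.1 with siTAZ #2. The siTAZ libraries all lay below the controls. It fell 2.06-fold with siTAZ #1 (log2 -1.04 ± 0.20, FDR 0.018) and 3.05-fold with siTAZ #2 (-1.61 ± 0.20, FDR 0.0036). The call with siTAZ #2 was made in every fit with 1 library left out. That with siTAZ #1 was lost without either siNTC library, but in no such fit with the genes from RANGAP1 to Y also left out. DKK3 (chr11:11977754-12031316, minus strand), a divergent member of the family, had 1127 and 1106 CPM in siNTC, 1380 and 1347 with siTAZ #1, and 1494 and 1522 with siTAZ #2. The rises were small but the groups did not overlap, at 1.22-fold (log2 0.29 ± 0.07, FDR 0.042) and 1.35-fold (0.43 ± 0.07, FDR 0.0093). Both calls were lost without an siNTC library or a siTAZ #2 library. With the genes from RANGAP1 to Y also left out, only the call with siTAZ #1 was lost in such fits. Over all annotated transcripts the exons of DKK3 share 5681 bases with USP47 on the opposite strand, but 0 over the canonical ones.

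SFRP1 (chr8:41119481-41166992, minus strand), which binds Wnt ligands outside the cell, had 1967 and 1854 CPM in siNTC, 1841 and 1823 with siTAZ #1, and 1957 and 1910 with siTAZ #2. Its 95% confidence intervals, -0.25 to 0.13 with siTAZ #1 and -0.17 to 0.21 with siTAZ #2 on the log2 scale, leave room only for small changes in either direction. DKK2 was scarce, at 2.22 to 3.56 CPM over the libraries, and was not called.

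In the beta-catenin arm, the DNA-binding partners of beta-catenin moved in different directions with siTAZ #1. LEF1 (chr4:108968701-109090112, minus strand) had 12.9 and 11.5 CPM in siNTC, 22.8 and 25.7 with siTAZ #1, and 6.03 and 8.64 with siTAZ #2. It rose 1.98-fold with siTAZ #1 (log2 0.99 ± 0.22, FDR 0.030), and with siTAZ #2 both libraries lay below the control (-0.74 ± 0.23), at an FDR of 0.056 that came to 0.016 without the genes from RANGAP1 to Y. TCF7 (chr5:133450372-133487556, plus strand) had 13.3 and 12.2 CPM in siNTC, 23.7 and 19 with siTAZ #1, and 9.63 and 12.3 with siTAZ #2. Its values were 0.74 ± 0.21 with siTAZ #1 (FDR 0.056, and 0.018 without those genes) and -0.22 ± 0.21 with siTAZ #2 (FDR 0.47).

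TCF7L1 (chr2:85360515-85537510, plus strand), which acts largely as a repressor, had 35.4 and 33.3 CPM in siNTC, 16.2 and 16.8 with siTAZ #1, and 26.4 and 27.1 with siTAZ #2. It fell 2.08-fold with siTAZ #1 (log2 -1.06 ± 0.12, FDR 0.0041), a call made in every fit with 1 library left out, and stood at -0.36 ± 0.12 with siTAZ #2 (FDR 0.072). TCF7L2 (chr10:114710006-114927437, plus strand) had 32.5 and 33.2 CPM in siNTC, 23.1 and 23.8 with siTAZ #1, and 28.1 and 28.2 with siTAZ #2. It fell 1.40-fold with siTAZ #1 (log2 -0.48 ± 0.11, FDR 0.034), and the call was lost in each fit with 1 library left out, at an FDR of up to 0.17. With siTAZ #2 the value was -0.22 ± 0.11 (FDR 0.20).

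CTNNB1 (chr3:41236232-41301587, plus strand) had 649 and 625 CPM in siNTC, 599 and 501 with siTAZ #1, and 484 and 471 with siTAZ #2. The siTAZ #2 libraries were the lowest. It fell 1.34-fold with siTAZ #2 (log2 -0.42 ± 0.10, FDR 0.032, and 0.070 with GC content modelled) and was not called with siTAZ #1 (-0.21 ± 0.10, FDR 0.20). AXIN2, a scaffold of the destruction complex and a common target of beta-catenin, was scarce, at 31 and 32 counts in siNTC, 40 and 98 with siTAZ #1, and 80 and 62 with siTAZ #2. In CPM the siTAZ libraries all lay above the controls, at 2.58 to 3.74 against 1.97 and 2.02, but neither difference was called (log2 0.49 ± 0.27, FDR 0.26, and 0.91 ± 0.27, FDR 0.054). The calls of LEF1 with siTAZ #1 and CTNNB1 with siTAZ #2 were lost without either siNTC library, and that of CTNNB1 also without either siTAZ #2 library, at an FDR of up to 0.18.

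A direct comparison of siTAZ #1 with siTAZ #2 asked whether the siRNAs differed in their effect. It called 11 of the 28 genes (39.3%), 6 higher and 5 lower with siTAZ #1, while 28.6% of all genes were called, 15.2% higher and 13.4% lower. The largest difference among those called was that of LEF1, 3.31-fold higher with siTAZ #1 (log2 1.73 ± 0.23, FDR 0.0041). FZD5 (3.0-fold, FDR 0.016), FZD1 (1.96-fold, FDR 0.0035), TCF7 (1.95-fold, FDR 0.020), LRP6 (1.90-fold, FDR 0.0043) and FZD7 (1.35-fold, FDR 0.025) were also higher with siTAZ #1. WNT5A was 2.13-fold higher with siTAZ #2 (log2 -1.09 ± 0.10, FDR 0.0017), and so were WNT5B (1.65-fold, FDR 0.0032), TCF7L1 (1.62-fold, FDR 0.010), FZD2 (1.48-fold, FDR 0.0085) and LRP5 (1.44-fold, FDR 0.021). The groups did not overlap for 19 of the 28 genes (65.6% of all genes). By these calls the siTAZ #2 cells had more transcript of the main ligands, and the siTAZ #1 cells more of FZD1, LRP6 and LEF1.

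No difference between the siRNAs was called for WNT2, WNT16, FZD6, DKK1 and DKK3. The 95% intervals of the difference on the log2 scale were -0.77 to 0.66 for WNT16, -0.44 to 0.19 for FZD6, -1.34 to 0.56 for WNT2 and -0.32 to 0.04 for DKK3. DKK1 was lower with siTAZ #2 in both libraries, with an interval of 0.08 to 1.06 and an FDR of 0.081. WNT5A, WNT5B, FZD1, LRP6 and LEF1 were called in every fit with 1 library left out, and 6 and 5 genes were called when siTAZ #2 replicate 1 or 2 was dropped (14.4% and 12.3% of all genes). By edgeR's exact test on 4 libraries 3 genes were called (9.83% of all genes), namely WNT5A, FZD5 and LEF1. FZD1, LRP6, WNT5B and FZD7 were not called by it (FDR 0.076, 0.084, 0.098 and 0.45). The LRP5 difference had an FDR of 0.10 with GC content modelled. Without the genes from RANGAP1 to Y 14 genes were called (38.0% of all genes), adding FZD4, FZD8 and DKK1. With those genes left out, more of the main calls were also made in every fit with 1 library left out. As WWTR1 itself was lower with siTAZ #1, the depth of the knockdown and the siRNA used cannot be told apart in this comparison.

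**Figure D4:**
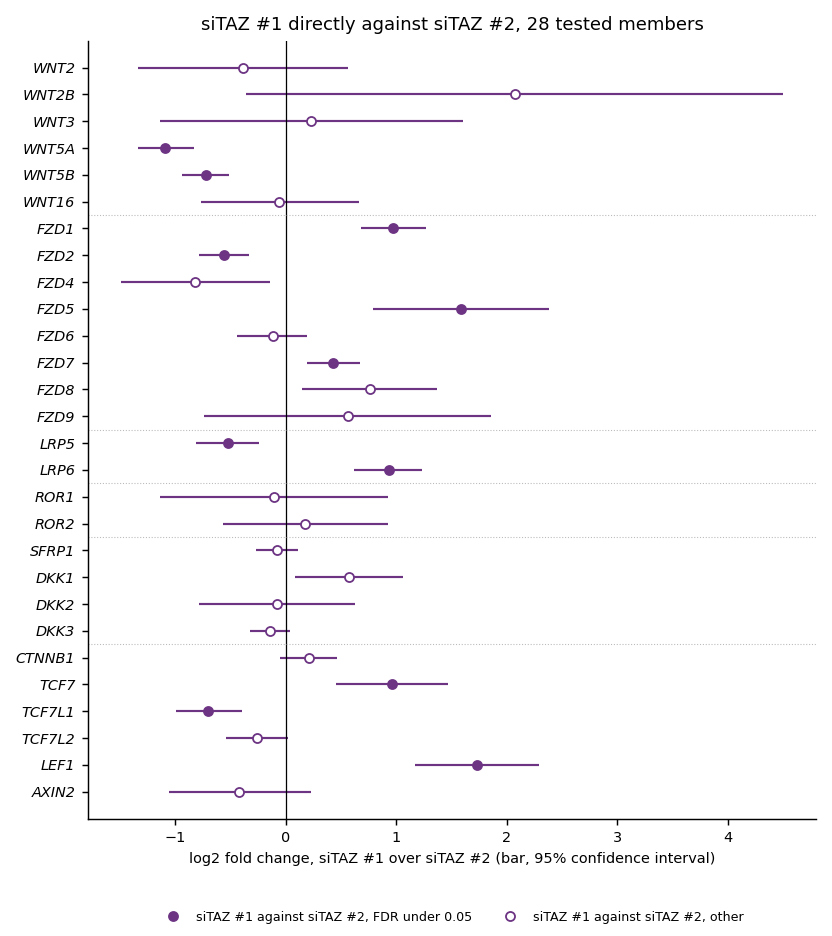
Log2 fold change of the 28 tested genes with siTAZ #1 over siTAZ #2, with 95% confidence intervals from the edgeR fit; filled points have an FDR under 0.05. LEF1, FZD5, FZD1, TCF7 and LRP6 lie to the right, higher with siTAZ #1, and WNT5A and WNT5B to the left, higher with siTAZ #2.

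Other genes of the pathway were read from a list of 87, of which 86 were in the table and 65 were tested. With siTAZ #1 17 of the 65 were called (26.2%), 12 higher and 5 lower, with a median log2 fold change of 0.04, and with siTAZ #2 18 (27.7%), 12 higher and 6 lower, with a median of 0.22. These shares were near the 20.6% and 28.5% of all genes. Without the genes from RANGAP1 to Y 22 and 24 were called, against 30.6% and 38.8% of all genes. WNT7B, PORCN, GPC4, FAM123B and CELSR1 were not tested in that fit. Fewer pathway genes were called with each siRNA when either siNTC library was dropped. In the fits with 1 library left out given here, the share of all genes called moved in the same direction as the pathway counts. Dropping siTAZ #2 replicate 1 gave 7 and 13 and dropping replicate 2 gave 7 and 10, while dropping siTAZ #1 replicate 1 gave 27 with siTAZ #1 (34.8% of all genes). By role, 3 of 5 tested receptors and membrane partners were called with each siRNA, and 4 of 20 genes of the destruction complex and its regulators with siTAZ #1 and 2 of 20 with siTAZ #2. Of 10 nuclear partners 2 and 3 were called, of 11 planar polarity genes 3 and 4, and of 9 tested common target genes 4 and 5. Of 5 tested genes of ligand processing and secretion 1, WLS, was called with each siRNA. These counts by role stand against the same 20.6% and 28.5% of all genes, and most roles hold few genes.

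KREMEN1, the cell-surface receptor through which DKK1 removes LRP6, changed the most among the genes of this list called against siNTC. It had 19.1 and 15.2 CPM in siNTC, 99.0 and 86.5 with siTAZ #1, and 72.6 and 95.2 with siTAZ #2, a rise of 5.40-fold (log2 2.43 ± 0.19, FDR 0.0014) and 4.88-fold (2.29 ± 0.19, FDR 0.0012), called in every fit with 1 library left out. DKK1 and KREMEN1, which act together, thus moved in opposite directions with both siRNAs. WLS, which carries Wnt proteins to the cell surface, had 280 and 254 CPM in siNTC, 653 and 538 with siTAZ #1, and 480 and 550 with siTAZ #2. It rose 2.23-fold (log2 1.16 ± 0.13, FDR 0.0038) and 1.93-fold (0.95 ± 0.13, FDR 0.0046). Both calls were lost without siNTC replicate 2, but neither was with the genes from RANGAP1 to Y also left out. PORCN, the enzyme that adds the lipid to Wnt proteins, lies among the genes with nearly missing counts, with 9.00 and 10.3 CPM in siNTC, 7.48 and 0.123 with siTAZ #1, and 11.7 and 13.8 with siTAZ #2. Its siTAZ #1 value cannot be used, and with siTAZ #2 (log2 0.40) it was not called, at an FDR of 0.85 in the fit that includes that library and of 0.15 by edgeR's exact test on the siNTC and siTAZ #2 libraries alone.

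TPBG, a membrane protein that dampens beta-catenin signalling, had 121 and 108 CPM in siNTC, 223 and 215 with siTAZ #1, and 124 and 139 with siTAZ #2. It rose 1.91-fold with siTAZ #1 (log2 0.93 ± 0.10, FDR 0.0033) and was not called with siTAZ #2 (FDR 0.19). FRAT2, a GSK3-binding protein, rose 2.31-fold (log2 1.21 ± 0.32, FDR 0.048) and 2.53-fold (1.34 ± 0.32, FDR 0.029) from 3.23 and 2.33 CPM in siNTC, and both calls were lost without either siNTC library, at an FDR of up to 0.23. Among planar polarity genes, CELSR2 rose 1.60-fold with siTAZ #1 (FDR 0.028) and 2.45-fold with siTAZ #2 (FDR 0.0028), and VANGL2 rose 2.24-fold with siTAZ #2 (FDR 0.015, 0.20 with siTAZ #1). PRICKLE1 fell 1.77-fold with siTAZ #1 (FDR 0.033), from 22.4 and 16.6 CPM in siNTC to 11.0 in each siTAZ #1 library, and had 23.9 and 26.3 CPM with siTAZ #2 (FDR 0.21). The TPBG call and the siTAZ #2 call of CELSR2 were made in every fit with 1 library left out, and those of CELSR2 and PRICKLE1 with siTAZ #1 and of VANGL2 with siTAZ #2 were lost without either siNTC library, at an FDR of up to 0.16.

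Among the common targets of beta-catenin, CCND1 rose and TNFRSF19 fell with both siRNAs. CCND1, which encodes cyclin D1, had 905 and 892 CPM in siNTC, 1387 and 1545 with siTAZ #1, and 1279 and 1331 with siTAZ #2. It rose 1.63-fold (log2 0.71 ± 0.09, FDR 0.0050) and 1.45-fold (0.54 ± 0.09, FDR 0.0078). MYC had 64.0 and 63.5 CPM in siNTC, 48.1 and 51.6 with siTAZ #1, and 27.8 and 19.6 with siTAZ #2, and it fell 2.69-fold with siTAZ #2 (log2 -1.43 ± 0.19, FDR 0.0040, and -0.36 with siTAZ #1, FDR 0.22). TNFRSF19, a membrane receptor of the TNF receptor family, had 337 and 346 CPM in siNTC, 214 and 202 with siTAZ #1, and 145 and 150 with siTAZ #2, and fell 1.64-fold (FDR 0.0033) and 2.31-fold (FDR 0.00064). MSX1, a homeobox factor, went from 1.71 and 2.46 CPM in siNTC to 8.39 and 10.4 with siTAZ #1, a rise of 4.51-fold (FDR 0.0085), and had 4.49 and 3.08 CPM with siTAZ #2 (FDR 0.099). The call of MYC and both of TNFRSF19 were made in every fit with 1 library left out, whereas those of CCND1 and MSX1 were lost without either siNTC library, at an FDR of up to 0.088.

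**Figure D5:**
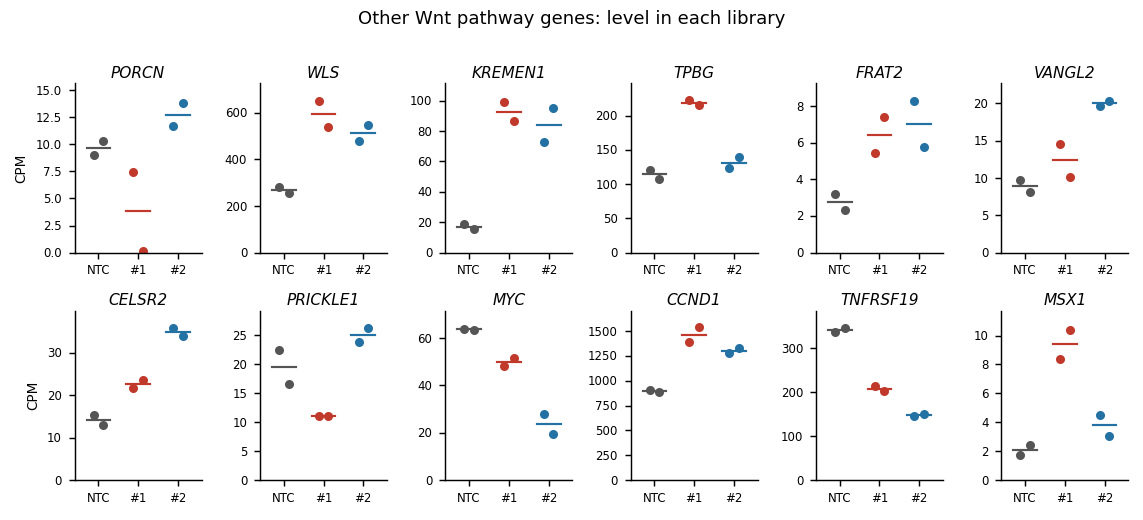
CPM in each library for the 12 other pathway genes described, on linear axes from 0; points are libraries, lines are group means, NTC is siNTC, and #1 and #2 are the TAZ siRNAs. KREMEN1, WLS, FRAT2 and CCND1 are higher and TNFRSF19 lower in all 4 siTAZ libraries than in the siNTC libraries, and PORCN shows the nearly missing counts of siTAZ #1 replicate 2.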

How the data were processed

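RNA-seq libraries were sequenced by Ion Torrent, and the authors deposited raw read counts per gene symbol, made with HTSeq 0.6.1 on hg19 per the submitters' processing notes, after alignment with TMAP per the methods. The strand setting of the counting is not given in the sources used here. The table held 23368 entries, of which 13 with date-like names (0.0458% to 0.0506% of counts) were left out. Genes were given GRCh37 positions from GENCODE by symbol or synonym (21478 of 23355). Counts from all 6 libraries were fitted in a single model with 3 groups by edgeR 4.0.16 (R 4.3.3; filterByExpr, TMM scaling, quasi-likelihood F test), with Benjamini-Hochberg adjustment over 14053 genes. CPM are TMM-scaled counts per 1000000. SE is the absolute log2 fold change over the square root of F, and 95% confidence intervals use the t distribution of the fit. A count of 0 was taken to allow 3 counts, which covers counting error only. The steps were checked on simulated counts.

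The 39 genes, the pathway list and the markers were chosen with earlier results of these data known. Genes with a call are given in every library; of the pathway list, the 6 with the largest absolute log2 fold change among those called with each siRNA are named, plus MYC, CCND1, WLS and PORCN. Alternatives were DESeq2 1.42.0, edgeR's exact test and a fit on 4 libraries, other scalings and filters (none, or a mean count of at least 50), an offset for GC content (known for 95.6% of the genes tested), a replicate block, an FDR of 0.1, leaving out the genes from RANGAP1 to Y, and leaving out each library. Combinations with the genes from RANGAP1 to Y left out, and a crossed block, were chosen after seeing the data.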

Additional observations from a re-analysis of the deposited data

Results flagged for a closer look

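The direct test between the siRNAs (edgeR's quasi-likelihood test, FDR under 0.05) called 11 of the 28 tested genes, which were marked for a closer look. Of all genes tested, 28.6% were called. The log2 fold change of siTAZ #1 over siTAZ #2 was 1.73 for LEF1, 1.58 for FZD5, 0.97 for FZD1, 0.96 for TCF7, 0.93 for LRP6 and 0.43 for FZD7. It was -1.09 for WNT5A, -0.72 for WNT5B, -0.70 for TCF7L1, -0.56 for FZD2 and -0.52 for LRP5. For LEF1, FZD5, LRP6, TCF7, FZD2 and LRP5 the group means of the siRNAs lay on opposite sides of siNTC, whereas for WNT5A, WNT5B, FZD1, FZD7 and TCF7L1 they lay on the same side. In the main fit, FZD5, TCF7, FZD2 and LRP5 were called against siNTC with neither siRNA, and LEF1 and LRP6 with siTAZ #1 only. Groups of 2 libraries were too small to look for single outlying libraries.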

How the results depend on the processing

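The counts of calls depended on the test and on single libraries, as did many single calls, while none of 56 called single-gene values changed direction under any alternative and 14 of them were called under each. With edgeR's exact test on 4 libraries, 4, 15 and 3 of the 28 genes were called for siTAZ #1, siTAZ #2 and the direct comparison, and 4, 28 and 7 of the other pathway genes. Of all genes, 6.64%, 46.7% and 9.83% were called. There the direct WWTR1 difference was -0.70 at an FDR of 0.27. The fit of 4 libraries called 9 and 15 of the 28 genes against siNTC, and 7 of the pathway genes with siTAZ #1. At an FDR of 0.1, 14 of the 28 genes were called with siTAZ #2, and 26 and 28 pathway genes with the siRNAs. With no filter on low counts 11 pathway genes were called with siTAZ #1, and with GC content modelled and the genes from RANGAP1 to Y left out 29 with siTAZ #2. For the fit of 4 libraries and the settings named after it, the share of all genes called is not given. Their counts therefore cannot be read as a trait of the listed genes.

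The main fit did not pair samples by replicate number. Deviations of same-numbered libraries correlated at -0.0069 (siNTC and siTAZ #1), 0.0108 (siNTC and siTAZ #2) and -0.1836 (siTAZ #1 and siTAZ #2) over 13474 genes. These values do not settle whether the cultures were paired. With a replicate block 6 of the 28 genes and 8 of the pathway genes were called with siTAZ #1, and 8 and 16 with siTAZ #2. A crossed block, with the siTAZ #2 numbers swapped, called 12, 9 and 11 of the 28 genes in the 3 comparisons. The share of all genes called is not given for these blocks either.

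Leaving out 1 library, with or without the genes from RANGAP1 to Y, gave 2 to 19 of the 28 genes with siTAZ #1, 3 to 13 with siTAZ #2 and 5 to 14 in the direct comparison, and 4 to 27, 8 to 27 and 11 to 32 of the pathway genes. The cause of these shifts was not tested. Each of these fits had fewer libraries, and the share of all genes called shifted between them too.

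Of 53 values that were not called, 16 changed sign in at least 1 alternative. Outside the fits with 1 library left out these were FZD8 (-0.06 with GC content modelled, -0.05 with the genes from RANGAP1 to Y also left out) and LRP5 (-0.09 and -0.08) with siTAZ #2, SFRP1 (0.00 with GC content modelled with siTAZ #1, -0.01 with no filter with siTAZ #2), and WNT2B with siTAZ #1 (0.02 by DESeq2, by the exact test, with library totals and with GC content modelled). Among fits with 1 library left out they were WNT2B (-1.97 to 0.86), WNT3 (-0.99 to 0.34) and ROR1 (-0.33 to 0.74) with siTAZ #1, SFRP1 (-0.04 to 0.04) and ROR1 (-0.22 to 0.84) with siTAZ #2, and the direct differences of WNT2 (-1.03 to 0.07), WNT3 (-0.56 to 0.87), WNT16 (-0.36 to 0.18), FZD6 (-0.30 to 0.07), FZD9 (-0.08 to 0.97), ROR1 (-0.35 to 0.18), ROR2 (-0.21 to 0.47) and DKK2 (-0.27 to 0.09). Other scalings moved the median of all genes by less than 0.1 on the log2 scale.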
